A study of Mus musculus with 9 samples.

Results

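The genes described here are those named for the proteins of the cytosolic ribosome. They were taken from the deposited expression table by symbol: every gene named Rpl or Rps followed by a digit, with Rplp0, Rplp1, Rplp2 and Rpsa, and without symbols marked as pseudogenes or belonging to the S6 kinases. The rule gave 92 of the 46517 genes of the table. Of these, 77 are core ribosomal proteins, 46 of the large subunit and 31 of the small subunit. A further 14 are paralogues or copies, such as Rpl22l1 and Rps27l. The remaining one, Rps19bp1, encodes a protein that binds a ribosomal protein and is no part of the ribosome. Fau, which encodes a ribosomal protein fused to a ubiquitin-like protein, falls outside the symbol rule.

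RNA of 9 samples from C57BL/6 mice older than 18 months was sequenced from stranded total RNA libraries. There were 2 lymph nodes of plckGAPDH mice (animals 455 and 508), 4 spleens of plckGAPDH mice (animals 343, 508 and 547, and 1 spleen whose column carries no animal number) and 3 spleens of wild-type mice (numbers 1, 4 and 5). In plckGAPDH mice a Gapdh transgene is driven by the proximal promoter of Lck, a kinase gene of the T cell lineage, and the labels describe these mice as developing tumours. The labels speak of splenocytes, a mixture of all spleen cells, so fewer cells of a type and less RNA per cell cannot be told apart. A plckGAPDH spleen numbered 331 in the labels has no column of that number, and the unnumbered column, rateB, was not tied to it or to any other animal. Since animals 343 and 547 are titled rateA, it may share an animal with another spleen, and the 4 plckGAPDH spleens may come from fewer than 4 animals; without it the members' median log2 fold change below was 0.10. Among the numbered samples only animal 508 is represented by both organs. The labels give no further pairing or culture, and every p-value below reflects the spread of these few samples alone.

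A ribosome is built from ribosomal RNA and a set of proteins that are needed in fixed proportions, so the cell makes these proteins together. In mammals most of their mRNAs begin with a tract of pyrimidines, the 5′ terminal oligopyrimidine motif, through which growth signals acting on the kinase mTOR control their translation. Lymphocytes that start to divide enlarge their ribosome pool, and free ribosomal proteins such as RPL5 and RPL11 can bind MDM2 and thereby stabilise p53.

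Values are FPKM, fragments scaled by gene length and library size. Estimated depth was 23700000 to 33800000 fragments per library. Gapdh itself lay at 430, 505, 890 and 894 FPKM in plckGAPDH spleens 343, 508, 547 and the unnumbered one, and at 299.1, 348 and 338 FPKM in wild-type spleens 1, 4 and 5. The plckGAPDH spleens all lay above the wild-type spleens, though limma did not call the gene (log2 fold change 0.97, SE 0.49, FDR 0.635). Mitochondrial ribosomal RNA took 9.68% to 31.8% of all FPKM in the plckGAPDH spleens, against 10.8% to 39.3% in the wild-type ones. 7SK RNA and the signal recognition particle RNA 7SL together took 25.6% to 49.8% in plckGAPDH spleens, against 20.6% to 42.2% in wild-type ones. Shares of all FPKM therefore depend on all of these RNAs. The wild-type spleens stood apart from each other: the beta-globin gene Hbb-bs reached 33216 FPKM in spleen 5, and in spleen 4 the summed FPKM of 13 neutrophil genes was 6.54, against 3564 in spleen 1. Summed FPKM of 12 B cell genes ran from 633 to 1487 in plckGAPDH spleens, was 407 and 497 in lymph nodes 455 and 508, and ran from 532 to 2392 in wild-type spleens. Plasma cell genes, 10 in all, summed to 4655 FPKM in plckGAPDH spleen 508 and 124 to 560 FPKM in the remaining plckGAPDH spleens, to 2723 and 2494 FPKM in lymph nodes 455 and 508, and to 258 to 430.5 FPKM in wild-type spleens; their part in the results was not tested. For 13 T cell genes the sums ran from 158 to 935 in plckGAPDH spleens, were 279 and 133 in lymph nodes 455 and 508, and ran from 435 to 736 in wild-type spleens.

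Sequences decide which gene a ribosomal protein read is given to, because the mouse genome holds many retrotransposed copies of these genes. The first 90 coding bases of Rps12, a small subunit protein, are shown because the gene was listed at 0 in all 9 libraries. The same coding sequence, base for base over its whole length, is carried by Rps12-ps3 on chromosome 19 and Rps12l1 on chromosome 7. Capitals mark the start codon.
Rps12: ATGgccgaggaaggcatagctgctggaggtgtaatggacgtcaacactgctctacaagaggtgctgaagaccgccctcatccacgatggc
Rps12 lies at chr10:23785183-23787275 on the minus strand (GRCm38, GENCODE M21), and all coding stretches shown are exonic.

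Rps27 and its paralogue Rps27l, by contrast, can be told apart over the whole coding sequence: 60 of 252 coding bases differ. The first 75 coding bases are shown with the differing bases in capitals, and Rps27rt on chromosome 9 shares the Rps27 coding sequence in full.
Rps27: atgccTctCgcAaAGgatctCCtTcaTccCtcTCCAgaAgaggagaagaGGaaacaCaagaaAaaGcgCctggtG
Rps27l: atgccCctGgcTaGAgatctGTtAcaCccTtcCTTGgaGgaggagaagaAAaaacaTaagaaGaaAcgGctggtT
Rpl37 and Rpl37rt differ at 1 of 291 coding bases, G249A, counted from the first base of the start codon, with the Rpl37 base first. Coding bases 229 to 269 of Rpl37 and the matching bases of Rpl37rt are shown with that base in capitals.
Rpl37: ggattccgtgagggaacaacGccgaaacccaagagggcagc
Rpl37rt: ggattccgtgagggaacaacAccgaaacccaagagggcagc
Rps27 lies at chr3:90212522-90213651 on the minus strand and Rps27l at chr9:66946086-66949516 on the plus strand. Rpl37 lies at chr15:5116645-5119140 on the plus strand and Rpl37rt at chr5:115102923-115110268 on the minus strand.

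The start sites of 4 of the 5 most abundant members were available from RefSeq (GRCm38.p6) and are shown from 40 bases before the start to 20 bases from it, with the longest run of 8 or more C or T bases near the start in capitals.
Rps27: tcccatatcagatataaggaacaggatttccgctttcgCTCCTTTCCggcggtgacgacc
Rps24: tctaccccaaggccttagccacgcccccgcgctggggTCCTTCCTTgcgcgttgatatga
Rpl13a: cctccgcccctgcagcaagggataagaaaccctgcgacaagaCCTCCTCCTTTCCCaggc
Rpl41: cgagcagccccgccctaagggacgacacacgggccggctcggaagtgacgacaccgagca
The windows are chr3:90213629-90213688 on the minus strand, chr14:24490638-24490697 on the plus strand, chr7:45128726-45128785 on the minus strand and chr10:128549149-128549208 on the minus strand. Such a run on the transcribed sense strand, touching the 10 bases on either side of the annotated start, was present in 27 of 67 members with a RefSeq promoter (40.3%) and in 25 of 57 core members (43.9%). Among all 32851 promoters of the same length it was present in 14.0%. Members were counted once per gene, by the first promoter listed, and the 32851 once per promoter with the members included. The percentages are therefore not in like units. A match is a description of these letters, and for Rpl41, with no run, it says only that the letters are not in this window.

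Core ribosomal protein genes were among the most abundant transcripts, and their order by level was largely kept between libraries. The median core gene averaged 709.6 FPKM over the 9 libraries, and 72 of 77 core genes averaged at least 100 FPKM. Across pairs of libraries, Spearman's rho of the core levels ran from 0.80 to 0.98 over 36 pairs, a description over genes that share each library. The most abundant member was Rps27, a zinc finger protein of the small subunit. It lay at 2348, 2625, 3241 and 2724 FPKM in plckGAPDH spleens 343, 508, 547 and the unnumbered one, at 1662 and 3164 FPKM in lymph nodes 455 and 508, and at 4018, 1787 and 7451 FPKM in wild-type spleens 1, 4 and 5. Wild-type spleens gave both the lowest and the highest spleen value, so the groups overlapped. Rps24, Rpl13a, Rpl41 and Rpl23a followed, with means of 2483, 1999, 1533 and 1416 FPKM over the 9 libraries. At the other end, 8 members averaged under 1 FPKM. Besides Rps12, the lowest were Rpl10l, Rps3a2, Rpl3l and Rps12l2, with means of 0.010, 0.036, 0.051 and 0.062 FPKM. Rpl10l is known in mice as a testis paralogue of Rpl10, and Rpl3l as a paralogue of Rpl3 in heart and skeletal muscle.

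The level of the whole set moved up and down between libraries without separating the genotypes. The members summed to 3.43%, 2.82%, 6.61% and 5.23% of all FPKM in plckGAPDH spleens 343, 508, 547 and the unnumbered one, and to 4.56%, 3.20% and 6.29% in wild-type spleens 1, 4 and 5. The plckGAPDH spleens averaged 4.52% ± 1.72 (SD, n = 4) and the wild-type spleens 4.68% ± 1.55 (SD, n = 3), and the exact two-sided permutation p was 0.971. With 35 splits the smallest p this test can give is 0.0571, since the smaller tail is doubled, so it could not reach 0.05. Taken instead as a share of the FPKM outside mitochondrial, immunoglobulin, globin and small noncoding RNA genes, the set made 18.0% ± 2.96 (SD, n = 4) in plckGAPDH spleens, against 18.2% ± 6.94 (SD, n = 3) in wild-type spleens (exact permutation p = 0.971). Wild-type spleens 4 and 5 were the lowest and the highest of the 7, at 11.2% and 25.1%.

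**Figure D1:**
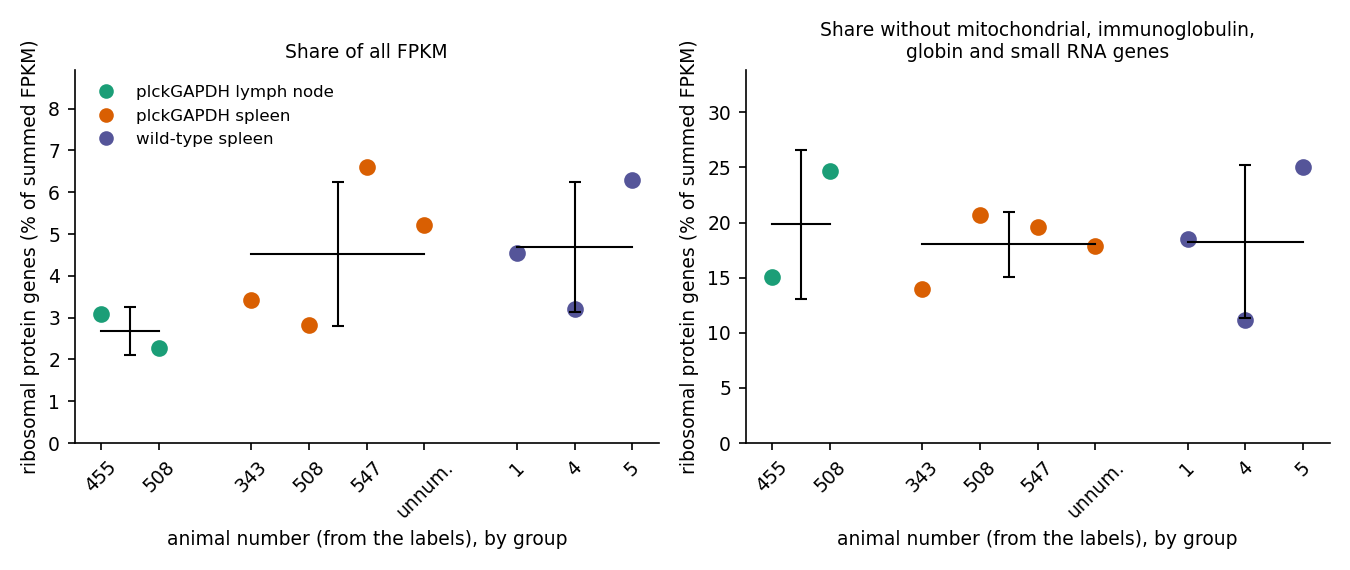
Summed FPKM of 92 members as a percent of all FPKM (left) and of FPKM outside mitochondrial, immunoglobulin, globin and small noncoding RNA genes (right). Each point is 1 library, with the group mean (line) and SD (bar). On the right, wild-type spleens span 11.2% to 25.1% and plckGAPDH spleens lie inside that range.

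The level of most members followed the same libraries up and down. Of 76 core genes above 0, 23 had their highest spleen value in plckGAPDH spleen 547, 1 in plckGAPDH spleen 508 and 52 in wild-type spleen 5. The lowest spleen value was in plckGAPDH spleen 343 for 12 and in wild-type spleen 4 for 64. Relative to the mean of the 7 spleens, the core genes' median log2 level was -0.75, -0.01, 0.47 and 0.07 in plckGAPDH spleens 343, 508, 547 and the unnumbered one, and -0.14, -1.02 and 0.64 in wild-type spleens 1, 4 and 5. The SD of log2(FPKM + 1) over the 7 spleens had a median of 0.64 over members and of 0.52 over all genes tested. After each library was scaled to the set's own median level, the members' median SD was 0.21 and that of all genes was 0.55; the scaling itself uses the members. The library with the lowest level, wild-type spleen 4, was also the one with the most mitochondrial ribosomal RNA, and plckGAPDH spleen 343 had the next lowest level and the next highest share among spleens. At the other end the order was not kept. The spleen with the smallest share, plckGAPDH spleen 508 at 9.68%, had a level of -0.01. Wild-type spleen 5 and plckGAPDH spleen 547, at 10.8% and 14.1%, had levels of 0.64 and 0.47. The part of mitochondrial ribosomal RNA in these levels was not tested.

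**Figure D2:**
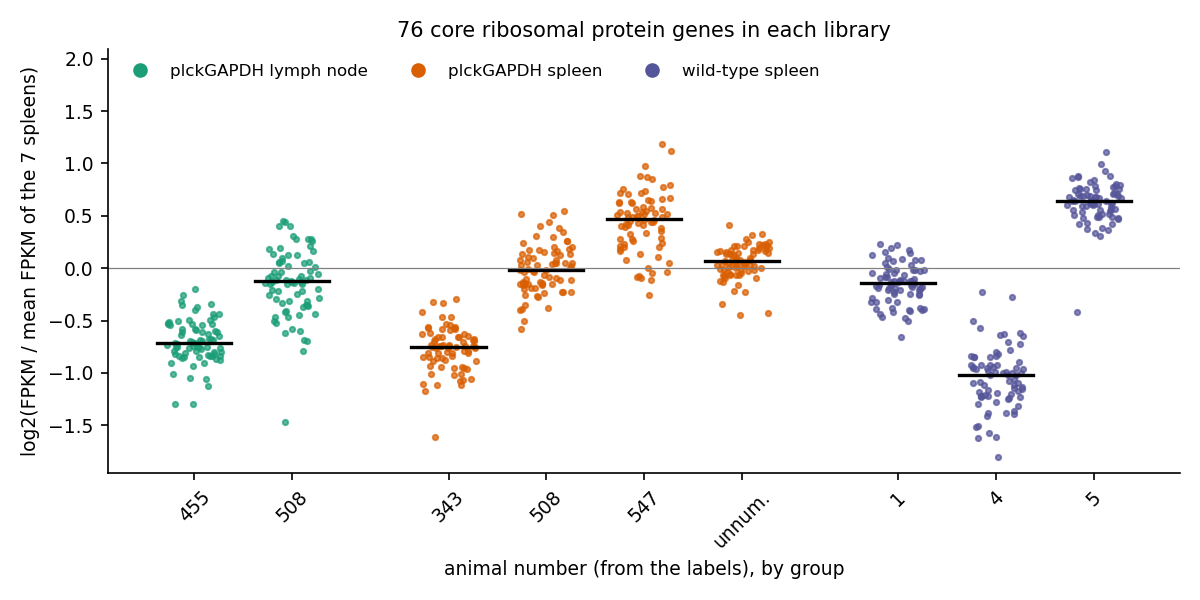
Level of 76 core ribosomal protein genes in each library, as log2 of FPKM over the mean of the 7 spleens (1 point per gene, black line the median). The medians run from -1.02 in wild-type spleen 4 to 0.64 in wild-type spleen 5, with the plckGAPDH spleens between -0.75 and 0.47.

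The spread of members within a library did not separate the genotypes. The SD over members of log2(FPKM over spleen mean) averaged 0.25 ± 0.07 (SD, n = 4) in plckGAPDH spleens, against 0.24 ± 0.05 (SD, n = 3) in wild-type spleens (exact permutation p = 0.800). Members with a zero in a spleen, Rps12l1 and Rps27rt, have no logarithm and were left out; with zeros set to 0.01 FPKM the difference was 0.37 in place of 0.01 (exact permutation p = 0.286). The balance of the subunits was also compared. The ratio of summed large to summed small subunit FPKM was 1.16, 1.15, 1.20 and 1.24 in plckGAPDH spleens 343, 508, 547 and the unnumbered one, and 1.11, 1.17 and 1.07 in wild-type spleens 1, 4 and 5. The values overlapped. The plckGAPDH spleens averaged 1.19 ± 0.04 (SD, n = 4) and the wild-type spleens 1.12 ± 0.05 (SD, n = 3), with an exact permutation p of 0.171. With the geometric mean of each subunit in place of the sum the difference turned to -0.003. Single genes weigh in these sums: Rps27 held 7451 of 51285 small subunit FPKM in wild-type spleen 5 and 2348 of 18511 in plckGAPDH spleen 343. Rps12-ps3 is outside the small subunit sum, while Rps12l1, inside it, was listed at 0 in plckGAPDH spleen 547. The part of these genes in the ratio was not tested.

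No ribosomal protein gene was called between plckGAPDH and wild-type spleens. Of 84 members that passed the filter of 1 FPKM in 3 spleens, limma called 0 (FDR below 0.05) and gave 0 an unadjusted p below 0.05, against 1.44% and 8.85% of all 12607 genes tested. By direction, 0.206% of all genes were called higher and 1.23% lower in plckGAPDH spleens. The groups overlapped for every one of these 84 members, while they did not overlap for 7.27% of all genes, 3.39% higher and 3.88% lower. The members' median log2 fold change was 0.14, with 57 positive and 27 negative; that of all genes was 0.02, with 6504 of 12607 positive. The members' median changed sign with single libraries: it was -0.045 without plckGAPDH spleen 547, -0.29 without wild-type spleen 4 and 0.54 without wild-type spleen 5. Core genes had a median SE of 0.56, so their intervals were wide: that of Rpl28 ran from -0.45 to 1.96.

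Among large subunit members the highest log2 fold changes of plckGAPDH over wild-type spleens were those of Rpl28 and Rpl27. Rpl28 lay at 527, 845, 911 and 736 FPKM in plckGAPDH spleens 343, 508, 547 and the unnumbered one, and at 498, 210 and 802 FPKM in wild-type spleens 1, 4 and 5. Wild-type spleen 5 lay among the plckGAPDH values, and limma gave a log2 fold change of 0.75 (SE 0.56, FDR 0.853). For Rpl27 the value was 0.75 (SE 0.47, limma FDR 0.793), but nearly all its FPKM lay on copies, described below. Rpl41, the smallest protein of the ribosome, had 0.62 (SE 0.63) and Rplp0 0.59 (SE 0.56). Rplp0 anchors the stalk that recruits translation factors, and its partners in the stalk, Rplp1 and Rplp2, had 0.21 (SE 0.60) and 0.05 (SE 0.56). The lowest log2 fold change among large subunit members was that of Rpl12, at -0.46 (SE 0.47), also with nearly all FPKM on copies. Rpl23 followed at -0.34 (SE 0.51). These sizes rest on wild-type spleens 4 and 5. Without wild-type spleen 4 the log2 fold change was 0.23 for Rpl28, 0.07 for Rpl41, 0.21 for Rplp0, -0.82 for Rpl12 and -0.55 for Rpl23. Without wild-type spleen 5 it was 1.19 for Rpl28, 1.13 for Rpl41, 1.01 for Rplp0, -0.14 for Rpl12 and -0.11 for Rpl23.

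In the small subunit Rps27 had a log2 fold change of -0.47 (SE 0.62) and Rps16 of -0.36 (SE 0.55). Without wild-type spleen 5 these were 0.02 and 0.11. Genes tied to human disease or the p53 checkpoint were not called either. Rps19, mutated in Diamond-Blackfan anaemia, had 0.27 (SE 0.61), and Rps14, lost in the 5q- syndrome, 0.35 (SE 0.61). Rpl11 had 0.47 (SE 0.58) and Rpl5 -0.08 (SE 0.43), while Rpl26 and Rps3 had -0.08 (SE 0.56) and -0.01 (SE 0.54). Rps6, the target of S6 kinase, had 0.02 (SE 0.58), and Rpsa, the laminin receptor protein, 0.11 (SE 0.53). Rps27a, a fusion with ubiquitin, had 0.43 (SE 0.59), and Rpl10 0.46 (SE 0.55). For Rpl5 and Rpl10 most FPKM lay on copies, described below.

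Taking the common level of the set out of each library narrowed the error, with a median SE of 0.28 over core genes, and still gave 0 called members of 84 and 0 with an unadjusted p under 0.05, against 0.867% and 7.51% of all 13031 genes. Of all genes, 0.0384% were called higher, and the rest of those called were lower. The groups of 14 members (16.7%) did not overlap on that scale, 7 higher and 7 lower in plckGAPDH spleens, against 7.15% of all genes, 3.0% higher and 4.15% lower; the scaling uses these members, so nothing is read from the excess. Rpl28 scaled to 887, 858, 650 and 703 in plckGAPDH spleens 343, 508, 547 and the unnumbered one, and to 551, 423 and 520 in wild-type spleens 1, 4 and 5. All 4 plckGAPDH spleens lay above all 3 wild-type spleens, and limma gave 0.63 on the log2 scale (SE 0.29, FDR 0.679). Rplp0 scaled to 1172, 1353, 1051 and 1055 in the plckGAPDH spleens and to 783, 865 and 845 in the wild-type spleens, also without overlap (0.47, SE 0.28, limma FDR 0.839). Rpl12 went the other way, at 15.5, 15.6, 20.7 and 14.2 in plckGAPDH spleens and 26.0, 26.2 and 22.6 in wild-type spleens (-0.58, SE 0.30, limma FDR 0.767). Nearly all FPKM of Rpl12 and its copies lay on the copies, described below. The other higher members without overlap were Rpl3, Rpl11, Rpl29, Rpl41 and Rps27a, and the other lower ones Rpl17, Rpl26, Rpl35a, Rps12l1, Rps15 and Rps21, all named after their values were seen.

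**Figure D3:**
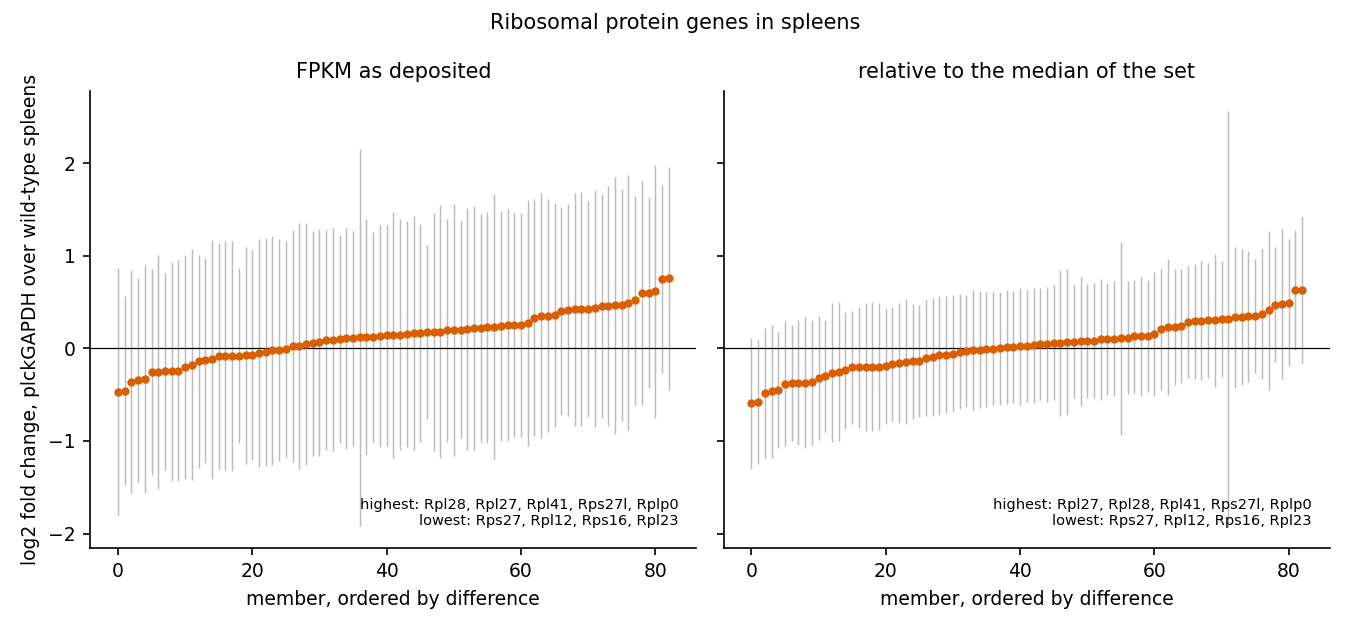
Log2 fold change of plckGAPDH over wild-type spleens for 83 members (points) with limma 95% confidence intervals (bars), on FPKM as deposited (left) and after scaling each library to the median of the set (right). Rps12l1, at -2.88, is off the scale and not drawn; every interval crosses 0.

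Lymph nodes were set against the spleens of the same genotype. Animal 508 gave a sample to each side, and the tests treat all samples as independent, so their p-values are approximate. Of 85 members tested, 0 were called and 0 had an unadjusted p under 0.05, against 0.0146% and 11.3% of 13682 genes. Of all genes, 0.00731% were called higher and 0.00731% lower in lymph nodes. The members' median log2 fold change was -0.32 and that of all genes -0.59, and with median-of-ratios scaling the members' median was 0.45 and that of all genes -0.01, so its sign depends on the scaling. The set made 3.09% and 2.28% of all FPKM in lymph nodes 455 and 508, against 2.82% to 6.61% in plckGAPDH spleens (exact permutation p = 0.267; the smallest possible with 15 splits is 0.133). Outside mitochondrial, immunoglobulin, globin and small noncoding RNA genes the difference had the opposite sign, with 15.04% and 24.6% in lymph nodes 455 and 508, against 13.9% to 20.7% in plckGAPDH spleens (exact permutation p = 0.667). The groups of 3 members did not overlap, all lower in lymph nodes, against 30.5% of all genes, 30.0% lower and 0.49% higher. For animal 508, the lymph node and the spleen held 60774 and 66099 summed FPKM of the set.

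Near copies took a large part of the signal of some core genes. A copy was counted where a gene of the table matched at least 90% of the bases over at least 80% of a core coding sequence; 760 copies of 73 genes were found, of which 24 averaged at least 100 FPKM. Between 15.7% and 19.9% of the summed FPKM of core genes and copies lay on copies in each library, and for 11 core genes most of it did. Rps12 is the extreme: Rps12-ps3 lay at 739, 1556, 2720 and 1880 FPKM in plckGAPDH spleens 343, 508, 547 and the unnumbered one, and at 1537, 738 and 2299 FPKM in wild-type spleens 1, 4 and 5. Rps12l1 lay at 310, 422, 0 and 661 FPKM in those plckGAPDH spleens and at 778, 422 and 1082 FPKM in the wild-type spleens. Spleen 547, listed at 0 for Rps12l1, had the highest Rps12-ps3, and the sum of Rps12 and its copies was 1050, 1979, 2722 and 2543 FPKM in plckGAPDH spleens and 2319, 1162 and 3383 FPKM in wild-type spleens, which overlapped. The fitted log2 fold change of Rps12l1 (-2.88, SE 1.74, limma FDR 0.771) rests on that zero. The sum of Rpl27 and its copies was 590, 962, 1158 and 1048 FPKM in plckGAPDH spleens 343, 508, 547 and the unnumbered one, and 737, 428 and 1295 FPKM in wild-type spleens 1, 4 and 5, again with overlap. For Rpl12, 98.4% of the sum lay on copies, mostly Gm10275, for Rpl27 98.2%, for Rpl5 96.2%, mostly Gm15500, and for Rpl10 90.6%, mostly Rpl10-ps3. Values of these genes alone are therefore uncertain, and sums over gene models of different length are approximate.

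**Figure D4:**
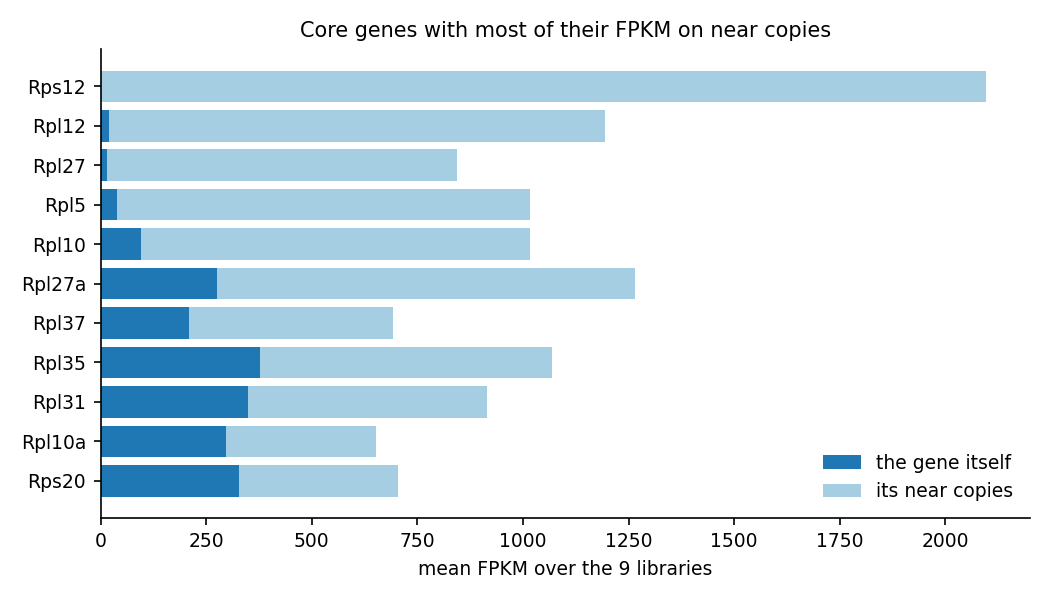
Mean FPKM over the 9 libraries of the 11 core genes with most of their FPKM on near copies, split into the gene itself (dark) and its copies (light). Rps12 is at 0 itself and its copies sum to 2095 FPKM.

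Among the paralogues, Rpl22l1 had 1 library far above the rest. Rpl22 is needed for alpha-beta T cell development in mice, and Rpl22l1 can take its place in the ribosome. Rpl22l1 lay at 28.8, 59.4, 270 and 93.6 FPKM in plckGAPDH spleens 343, 508, 547 and the unnumbered one, at 80.9 and 50.1 FPKM in lymph nodes 455 and 508, and at 59.8, 48.2 and 115 FPKM in wild-type spleens 1, 4 and 5. It amounted to 60.5% of Rpl22 in spleen 547. The remaining plckGAPDH spleens had 8.47% to 14.8% and the wild-type ones 11.0% to 14.0%. The difference in mean log2 ratio was 0.36 (exact permutation p = 0.971), and without spleen 547 the difference was -0.26. The proliferation marker Mki67 was also highest in spleen 547, at 146 FPKM; the remaining plckGAPDH spleens had 28.6 to 68.2 FPKM and the wild-type ones 6.37 to 22.8 FPKM. Its part in the ratio was not tested.

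Rps27l, a target of p53 in human and mouse cells, lay at 39.5, 77.3, 130 and 100 FPKM in plckGAPDH spleens 343, 508, 547 and the unnumbered one and at 43.3, 48.3 and 67.6 FPKM in wild-type spleens 1, 4 and 5. Its own log2 fold change was 0.60 (SE 0.48, limma FDR 0.878). Relative to Rps27 it was 2.11-fold higher in plckGAPDH spleens, with overlap between the groups (exact permutation p = 0.114, 0.907 after Benjamini-Hochberg adjustment over 17 exact tests, which was the lowest adjusted value of any of them). Rps4l, annotated as a transcribed pseudogene at chr6:148354656-148355598, was near the detection limit, at 0.05, 0.13, 0.19 and 0.16 FPKM in plckGAPDH spleens and at 1.09, 0.41 and 4.18 FPKM in wild-type spleens. That is about 1 to 5 estimated fragments in the plckGAPDH spleens, against 9 to 81 in the wild-type ones. Its log2 ratio to Rps4x averaged -12.1 ± 0.20 (SD, n = 4) in the plckGAPDH spleens, against -9.30 ± 0.83 (SD, n = 3) in the wild-type ones, without overlap. The exact permutation p was 0.0571, the smallest possible, and 0.907 after adjustment. Rpl7l1 and Rpl36al relative to Rpl7 and Rpl36a gave exact permutation p of 0.857 and 0.229.

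**Figure D5:**
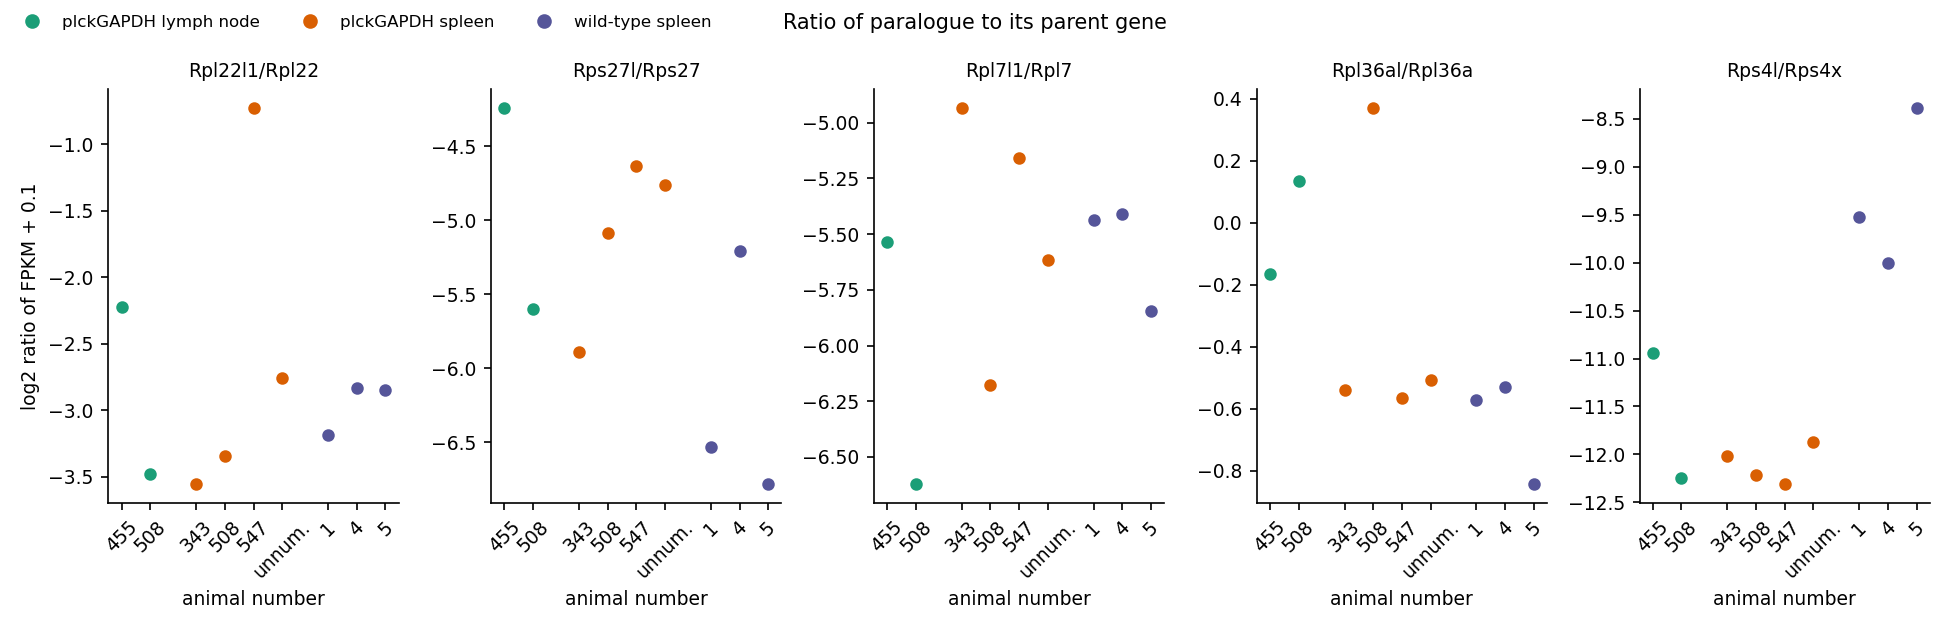
Log2 ratio of 5 paralogues to their parent genes (FPKM + 0.1), 1 point per library in lymph nodes, plckGAPDH spleens and wild-type spleens. Rpl22l1 per Rpl22 stands out in plckGAPDH spleen 547 at -0.72, and Rps4l per Rps4x lies lower in all 4 plckGAPDH spleens than in the 3 wild-type spleens.

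No gene of the other lists for ribosome production was called between the spleen genotypes. Of 44 ribosome biogenesis genes, such as those for nucleolin, fibrillarin and Nop56, 41 had positive log2 fold changes in plckGAPDH over wild-type spleens with a median of 0.29, and 0 were called. Of 14 genes of RNA polymerase I transcription 10 were positive (median 0.14), of 20 genes with translation-related or pyrimidine-tract mRNAs 17 (median 0.33; Npm1 is in this list and in that of ribosome biogenesis), of 22 initiation factors 19 (median 0.46), and of 77 mitochondrial ribosomal protein genes 69 (median 0.28); 0 were called in each. The median of all genes was 0.02, with 6504 of 12607 positive and 1.44% called. Summed FPKM of each of these lists overlapped between the groups. Ribosome biogenesis genes summed to 656, 841, 2107.5 and 1464 FPKM in plckGAPDH spleens 343, 508, 547 and the unnumbered one. In wild-type spleens 1, 4 and 5 their sums were 929, 640 and 1198 FPKM. The fusion gene Fau had -0.03 (SE 0.54), and the elongation factors Eef1a1 and Eef2 had 0.08 (SE 0.60) and 0.54 (SE 0.52). Of 11 genes of the p53 pathway, not chosen as specific to ribosome stress, 9 were positive and 0 were called. Their median was 0.55, with a range from -0.16 to 1.81 and a lowest limma FDR of 0.262. Mdm2 had 0.45 (SE 0.38), Cdkn1a 0.55 (SE 0.40) and Trp53 -0.11 (SE 0.56). Myc, which drives ribosome production, lay at 7.90, 15.5, 44.7 and 16.0 FPKM in plckGAPDH spleens and 9.47, 9.85 and 13.3 FPKM in wild-type spleens (0.64, SE 0.51, limma FDR 0.877). Of 20 cell cycle genes all 20 were positive with a median of 1.36, and 0 were called. Summed cell cycle FPKM was 280 to 1225 in the plckGAPDH spleens, against 210 to 254 in the wild-type ones, and their part in these values was not tested.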

How the data were processed

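Per the labels, total RNA of spleen cells was sequenced from stranded total RNA libraries. The authors deposited 1 table of FPKM per gene for 9 samples. The build was mm10, and Bowtie2 2.2.6, RSEM, STAR 2.4.0a and Subread 1.5.0-p3 with featureCounts are named, per the submitters' processing notes. The tool behind the FPKM and the annotation: not given in the sources used here. No counts were used, so no count model was fitted. One plckGAPDH spleen column has no animal number and was used as a member of its group.

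limma 3.58.1 (R 4.3.3) was fitted to log2(FPKM + 1) with a trended prior, on genes of at least 1 FPKM in 3 spleens (2 samples in the lymph node fit, over 3 groups), with Benjamini-Hochberg adjustment over all genes and calls at an FDR under 0.05. Fold changes on this scale understate low genes. A second spleen fit scaled each library to the median of the set. Per-library measures were compared with scipy 1.17.1's exact two-sided permutation test, which doubles the smaller tail. A version that counts absolute differences was also coded after values had been seen and is given only as an alternative, as is the treatment of zeros in the spread, which was changed after its first values were seen. Copies were found with blastn 2.17.0 against GENCODE M21 transcripts. Depth was estimated from low FPKM. Scripts were tested on simulated data. Named members are those with the 5 largest differences each way in either spleen fit, the 5 most and least abundant, the paralogue pairs and a list known from disease, the p53 checkpoint or the stalk; members chosen after their values were seen are named as such. Members and lists were chosen with earlier results of these data known. Some genes are not reported here by name.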

Additional observations from a re-analysis of the deposited data

Results flagged for a closer look

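In the 4 plckGAPDH spleens, 50 values (ratios and named members) were examined for 1 sample far from the others, by comparing its gap with the range of the group. Chance flags about 1 in 20 such groups where values vary continuously, and 3 values stood apart. The log2 ratio of Rpl36al to Rpl36a was 0.371 in plckGAPDH spleen 508, where the other 3 lay between -0.56 and -0.51. Rpl10l was listed at 0.050 FPKM in spleen 508, about 1 estimated fragment, and at 0 in the other 3. Rps12l2 was listed at 0.19 FPKM in spleen 547, also about 1 estimated fragment, and at 0 in the other 3. Where the other 3 are at 0, any single fragment is flagged, so that rate does not apply to Rpl10l or Rps12l2.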

How the results depend on the processing

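No member was called in any of the fits under any alternative. Of 509 alternative values, 457 kept their direction and side of the threshold or, for values with no test, moved by less than the spread between replicates or, for counts, by less than 1.5 times. In the spleens, called genes over the whole table numbered 74 without a filter, 12 without wild-type spleens 4 and 5 together (which leaves 1 wild-type spleen, assumed to vary like the plckGAPDH spleens), and 72 to 265 with 1 library left out; the members' median log2 fold change then ran from -0.29 (without wild-type spleen 4) to 0.54 (without wild-type spleen 5). Relative to the set, called genes numbered 55 with a pseudocount of 0.1, 3 without a filter and 43 to 124 with 1 library left out. In the lymph node fit they numbered 5 with a pseudocount of 0.1 or no filter, 1 with median-of-ratios or rescaled FPKM and 0 to 28 with 1 left out (a lone lymph node is then assumed to vary like the other groups), and the members' median was 0.45 with median-of-ratios and 0.12 with rescaled FPKM. With 1 library left out, the differences in share of all FPKM ran from -0.90 to 0.65 percentage points and in the narrower share from -3.75 to 3.19 (spleens) and from -2.99 to 6.60 (lymph nodes); the large to small ratio from -0.024 to 0.036 (lymph nodes); the spread from -0.013 to 0.040. The log2 ratio differences ran from -0.26 to 0.68 (spleens) and from -0.88 to 0.37 (lymph nodes) for Rpl22l1, from -0.51 to 0.85 (lymph nodes) for Rps27l, from -0.087 to 0.33 (spleens) for Rpl7l1 and from -0.15 to 1.16 (lymph nodes) for Rps4l. Named members' log2 fold changes ran from -1.01 to 0.0195 for Rps27 and from -0.89 to 0.11 for Rps16. The geometric mean of members differed by 20.5 FPKM and the ratio of geometric means by -0.00342 in spleens. Among alternatives chosen after seeing the data, the ratio of geometric means with zeros set to 0.01 FPKM (-0.13) and members summed with copies (-0.014) turned the large to small difference in lymph nodes, and core members alone gave a spread difference of -0.00068. With zeros kept at 0.01 FPKM the spread difference was 0.37 (exact permutation p = 0.286). Counting absolute differences, the exact permutation p of Rps4l per Rps4x (-2.80) was 0.0286, against 0.0571 by the test used. The causes were not tested. No paired analysis was possible because only animal 508 is shared between lymph nodes and spleens, and the spleen genotypes share no animal numbers. With 4 against 3 spleens, only large changes could be called.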
